A study of Mus musculus with 6 samples.

Results

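Stathmins, neuronal tubulins and the microtubule proteins of young neurons were examined in the mouse retina at postnatal day 4. The group holds 10 genes: Stmn1, Stmn2, Stmn3, Stmn4, Tubb3, Tubb2b, Map1b, Map2, Mapt and Dcx. They were found by gene symbol, and all 10 were matched by 21 of the 22626 probe sets that are not controls. A further probe set is shared by Tubb2b and a pseudogene and was left out. RNA came from the retinas of 6 mice of a mixed C57/129 background, 3 Nhlh2 knockout and 3 wildtype, all at postnatal day 4 (P4), with 1 Affymetrix Mouse 430A 2.0 array a mouse. According to the series design the mice form 3 litters, each giving 1 knockout and 1 wildtype retina, numbered 1 to 3 here. Nhlh2 is a basic helix-loop-helix transcription factor of developing neurons. Its own level was not analysed here, because the annotation used pairs no probe set with it, so the genotype labels were not checked against the targeted gene. How the knockout allele was made is not given in the sources used here.

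Microtubules are polymers of alpha and beta tubulin that grow and shrink at their ends. Stathmins bind free tubulin dimers and favour shrinkage, whereas Map1b, Map2 and tau, the product of Mapt, bind the polymer and stabilise it. Doublecortin, encoded by Dcx, binds the microtubules of migrating and newly born neurons, and Tubb3 is widely used as a marker of neurons that have left the cell cycle. In the mouse retina at P4, ganglion and amacrine cells are already present while rods and bipolar cells are still being born.

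Each gene is read on this platform by 1 or more probe sets, groups of short probes whose brightness the authors combined into a linear signal with the MAS 5.0 algorithm. The deposited arrays share no common scale. Signals are therefore given as deposited together with their percentile among the 22626 probe sets of the same array, and arrays were compared after quantile normalization of log2(signal + 1). The array of knockout replicate 2 stands apart. Its median signal was 9.0, against 51.3 and 68.4 in the other knockout arrays and 56.9 to 95.5 in the wildtype arrays. The signal near the 3' end of Actb was 274 times that near its 5' end in this array, against 1.38 to 1.56 times in the other 5, and its highest Spearman correlation with any array was 0.669, while the other 5 correlated with each other at 0.947 or more. The fitted differences between genotypes are given with and without it. The tissue bore retinal markers: Crx, a photoreceptor factor, lay between percentiles 98.5 and 98.7 of the wildtype arrays on its higher probe set. 6 lens genes had a summed normalised signal of 3880 in wildtype replicate 1 and at most 163 in the other 5 arrays.

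The promoter windows of these genes are shown because Nhlh2 belongs to a family of factors that bind E-boxes, the hexamer CANNTG, which reads the same pattern on both strands. RefSeq windows of build GRCm38.p6, from 250 bases before to 50 bases after the gene's start, were at hand for 5 of the 10 genes. The hexamer was found in those of Stmn3 and Map1b and not in those of Tubb3, Map2 and Dcx, while 72.3% of all 32851 windows held it. The windows of Stmn3 (chr2:181314451-181314750, minus strand), Map1b (chr13:99516553-99516852, minus strand) and Tubb3 (chr8:123411303-123411602, plus strand) are given 5' to 3', with the E-box in capitals. In both genes it reads CAGATG, starting 75 bases before the start of Stmn3 and 213 bases before that of Map1b.
Stmn3: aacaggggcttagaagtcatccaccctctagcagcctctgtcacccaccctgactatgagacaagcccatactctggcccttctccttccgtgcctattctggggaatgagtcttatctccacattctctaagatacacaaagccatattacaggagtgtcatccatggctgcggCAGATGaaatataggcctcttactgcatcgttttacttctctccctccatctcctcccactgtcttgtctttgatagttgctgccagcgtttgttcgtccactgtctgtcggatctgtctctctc
Map1b: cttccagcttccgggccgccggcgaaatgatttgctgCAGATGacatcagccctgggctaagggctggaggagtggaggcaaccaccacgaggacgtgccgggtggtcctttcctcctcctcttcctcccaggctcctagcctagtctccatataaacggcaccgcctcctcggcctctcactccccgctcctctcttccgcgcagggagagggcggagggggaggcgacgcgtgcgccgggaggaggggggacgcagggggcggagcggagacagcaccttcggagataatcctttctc
Tubb3: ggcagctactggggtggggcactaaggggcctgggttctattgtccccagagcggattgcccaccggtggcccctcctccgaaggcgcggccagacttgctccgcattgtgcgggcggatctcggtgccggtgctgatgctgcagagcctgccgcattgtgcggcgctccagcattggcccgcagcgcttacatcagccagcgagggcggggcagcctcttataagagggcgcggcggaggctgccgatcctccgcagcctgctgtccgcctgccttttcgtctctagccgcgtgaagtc
A match of letters is a description of the sequence, and binding was not measured.

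In wildtype P4 retina the stathmins and beta tubulins lay at percentile 80.9 or above on every probe set. Stmn1, the ubiquitous stathmin of dividing and young cells, had deposited signals of 7023, 8093 and 7737 in wildtype replicates 1, 2 and 3 on probe set 1415849_s_at, at percentiles 99.6 to 99.8. Its other probe set, 1448113_at, gave 734, 944 and 698. Stmn2, a membrane-bound stathmin of growth cones, had 1044, 1022 and 784 on 1423281_at and 824, 878.5 and 514 on 1423280_at. Both probe sets lay between percentiles 88.5 and 93.7 in these arrays, so they placed the gene at nearly the same rank. Stmn3, a neuronal stathmin, had 1424, 1559 and 1370 on 1435113_x_at and 433, 586.5 and 450 on 1460181_at. Stmn4, another stathmin of neurons, had 478, 445 and 338 on its single probe set 1418105_at, at percentiles 80.9 to 85.0.

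The beta tubulin Tubb2b, an isotype of migrating neurons in which human mutations cause cortical malformation, had signals of 2520, 2901 and 2161 in wildtype replicates 1 to 3 on 1452679_at, between percentiles 97.8 and 98.2. Tubb3 had 502, 550 and 539 on 1415978_at, between percentiles 84.2 and 89.1. The 2 tubulins each have a single probe set here. Signals of different probe sets also depend on their probes, so these ranks do not order transcript amounts between genes.

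Among the proteins that bind the polymer, the probe sets of a gene gave unlike ranks. Map1b, an early axonal protein, had 640, 937 and 553 on 1421851_at and 423, 633 and 570 on 1450397_at, but 27.3, 58.3 and 25.1 on 1421850_at, which lay below the array's median in every wildtype array. Map2, a protein of dendrites and cell bodies, had 183, 292 and 48.1 on 1421328_at and 63.8, 114 and 34.8 on 1421327_at. By percentile too the third wildtype array was the lowest of the 3 on both. Mapt had 994, 1088 and 2752 on 1424719_a_at, 336, 331 and 262 on 1424718_at, and 82.9, 96.9 and 55.1 on 1417885_at. On the first of these wildtype replicate 3 was the highest of the 3 by percentile, at 98.4 against 93.3 and 92.4 in wildtype replicates 1 and 2, while on the others the percentiles of the 3 arrays lay within 75.1 to 79.2 and 49.4 to 51.6. Dcx had 303, 334 and 177 on 1418139_at and 192, 279 and 87.6 on 1418141_at. Its remaining probe sets, 1448974_at and 1418140_at, lay at or below percentile 44.3 in each wildtype array.

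**Figure D1:**
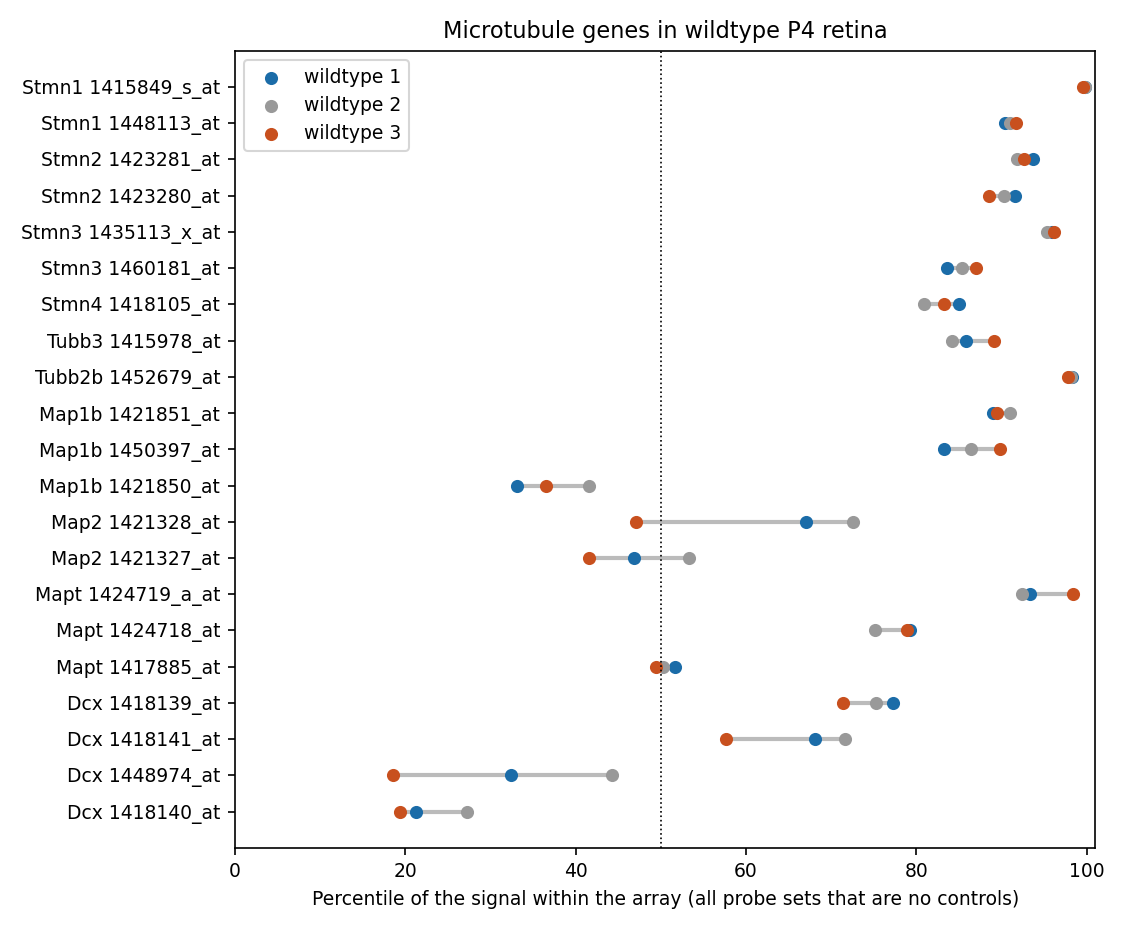
Percentile of the signal of each of the 21 probe sets (1 line each) among all 22626 probe sets of the same array, in wildtype replicates 1 to 3 (blue, grey and orange points), with a bar over their range and a dotted line at the median of the array. Stathmins and tubulins lie above percentile 80, while Map2 1421328_at spans percentiles 47.1 to 72.5.

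In the comparison of genotypes no gene of the group passed the test. Of the 21 probe sets, 17 passed the filter on dim signals, with at least 1 for each of the 10 genes. The 4 that did not were Map1b 1421850_at, Map2 1421327_at, and Dcx 1448974_at and 1418140_at. With all 6 arrays, limma gave 0 of 17 an adjusted p under 0.05, as it did 0 of all 11610 probe sets tested, a share of 0%. At an unadjusted p under 0.05 it was again 0 of 17, against 14 of 11610 in all (0.121%). Without knockout replicate 2 these counts were 0 of 17 and 0 of 11610 (0%) after adjustment, and 0 of 17 against 98 of 11610 (0.844%) before it. The median fitted difference, knockout minus wildtype, was -0.05 on the log2 scale over the 17 probe sets and -0.11 over all 11610, and without knockout replicate 2 it was -0.003 and 0.00.

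The stathmins had fitted differences of both signs, from -0.77 to 0.41 with all 6 arrays and from -0.15 to 0.33 without knockout replicate 2. Stmn1 on 1415849_s_at had normalised log2 signals of 12.68, 12.82 and 12.46 in knockout replicates 1, 2 and 3, against 12.70, 12.71 and 12.38 in wildtype replicates 1, 2 and 3. The groups overlapped, and the fitted difference was 0.06 ± 0.27 (SE, n = 3 each, limma adjusted p = 0.924), and -0.02 ± 0.18 without knockout replicate 2. On 1448113_at Stmn1 had 9.32, 8.72 and 9.35 in the knockout and 8.88, 8.98 and 9.09 in the wildtype, a difference of 0.15 ± 0.30 with all arrays. Without knockout replicate 2 this was the 1 probe set of 17 whose groups did not overlap, with both remaining knockout arrays higher, where 11.1% of all probe sets tested did not overlap. Its fitted difference was then 0.33 ± 0.17 (SE, limma adjusted p = 1), with a 95% interval of -0.08 to 0.74. With all 6 arrays, 0 of 17 had groups that did not overlap, against 6.18% of all probe sets.

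Stmn2 on 1423281_at had 9.27, 6.82 and 9.39 in knockout replicates 1 to 3, against 9.45, 9.10 and 9.25 in wildtype replicates 1 to 3. The low value is that of knockout replicate 2, and the other knockout arrays lay within the wildtype range. The fitted difference was -0.77 ± 0.72 with all 6 arrays (SE, limma adjusted p = 0.742) and 0.06 ± 0.18 without that array (limma adjusted p = 1). Stmn3 on 1435113_x_at had 9.69, 10.59 and 9.86 in the knockout and 9.97, 9.80 and 10.05 in the wildtype. Here knockout replicate 2 was the highest of the 6. The difference was 0.11 ± 0.34 with it and -0.15 ± 0.18 without it, with an interval of -0.58 to 0.28. The other Stmn3 probe set, 1460181_at, had 7.94, 8.49 and 8.31 in the knockout and 8.08, 8.25 and 8.44 in the wildtype, with -0.01 ± 0.29 with all arrays and -0.13 ± 0.21 without knockout replicate 2. Stmn4 had 7.99, 9.19 and 8.15 in the knockout and 8.22, 7.84 and 8.04 in the wildtype, with a difference of 0.41 ± 0.40 with all arrays and 0.03 ± 0.19 without knockout replicate 2 (SE).

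Neither tubulin passed the test, and for both the groups overlapped. Tubb3 had 8.22, 8.71 and 8.71 in knockout replicates 1 to 3, against 8.31, 8.14 and 8.69 in wildtype replicates 1 to 3. The difference was 0.17 ± 0.31 with all arrays and 0.08 ± 0.25 without knockout replicate 2 (SE), where the 95% interval ran from -0.52 to 0.68. Tubb2b had 10.69, 10.91 and 10.44 in the knockout and 10.91, 10.84 and 10.68 in the wildtype. Its difference was -0.13 ± 0.27 with all arrays. Without knockout replicate 2 it was -0.22 ± 0.18, with an interval of -0.65 to 0.22 (limma adjusted p = 1).

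Map1b on 1421851_at had 9.01, 5.70 and 8.12 in knockout replicates 1 to 3, against 8.69, 8.97 and 8.73 in wildtype replicates 1 to 3. This was the lowest fitted difference of the group, -1.19 ± 0.84 (SE, limma adjusted p = 0.742), and it stood at -0.22 ± 0.28 without knockout replicate 2. On 1450397_at Map1b had 8.13, 8.59 and 8.31 in the knockout and 8.04, 8.37 and 8.78 in the wildtype, a difference of -0.05 ± 0.32 with all arrays and -0.17 ± 0.25 without knockout replicate 2. The 2 probe sets of the gene were thus more than 1 log2 unit apart with all arrays. Map2 on 1421328_at had 7.03, 6.59 and 5.37 in the knockout and 6.83, 7.21 and 5.42 in the wildtype. The spread within each genotype, with an SD of 0.86 in the knockout and 0.94 in the wildtype, exceeded the fitted difference of -0.16 ± 0.64 (SE). Without knockout replicate 2 the difference was -0.31 ± 0.72.

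Mapt on 1424719_a_at had 9.15, 8.94 and 10.74 in the knockout and 9.36, 9.20 and 11.03 in the wildtype, with a difference of -0.26 ± 0.70 (SE) with all arrays and 0.07 ± 0.64 without knockout replicate 2. In both genotypes replicate 3 was the highest array, and these fits have no term for the litter. Within the littermate pairs the knockout was lower in all 3, with differences of -0.22, -0.26 and -0.29 in pairs 1, 2 and 3. Pair 2 holds knockout replicate 2, which had 5.64% of the mean deposited signal of the other knockout arrays on this probe set. Without that array, 48.1% of all probe sets tested had the same sign in pairs 1 and 3. No share was taken for the same sign in all 3 pairs, so how common that pattern is was not assessed. With the replicate block, that is with the litter as a term, the difference was -0.26 with all arrays (limma adjusted p = 0.753) and -0.23 without knockout replicate 2 (limma adjusted p = 0.998), so it did not pass the test in either. On 1424718_at Mapt had 7.36, 8.14 and 7.81 in the knockout and 7.70, 7.39 and 7.68 in the wildtype, with 0.18 ± 0.32 with all arrays and -0.003 ± 0.22 without knockout replicate 2. Its differences in pairs 1, 2 and 3 had mixed signs, with -0.33, 0.75 and 0.13 on 1424718_at and -0.03, -2.14 and 0.46 on 1417885_at. Dcx on 1418139_at had 7.56, 6.81 and 7.33 in the knockout and 7.54, 7.40 and 7.13 in the wildtype, with -0.12 ± 0.32 with all arrays and 0.09 ± 0.20 without knockout replicate 2. On 1418141_at it had 7.17, 7.39 and 6.27 in the knockout and 6.91, 7.14 and 6.19 in the wildtype, with 0.20 ± 0.44 and -0.03 ± 0.40. The signs of both Dcx probe sets thus turned when knockout replicate 2 was left out, and so did those of 7 of the 14 probe sets in all that the naming rule gives in full. Over all 17 probe sets the limma adjusted p ran from 0.742 to 0.987 with 6 arrays, and it was 1 for each without knockout replicate 2. Markers of ganglion cells, the retinal neurons whose axons form the optic nerve, had a lower sum in each knockout array. The sum itself was not tested, and no probe set of these markers passed the test. Sums of marker signals take every probe set of the listed genes, also those that did not pass the filter. Of all single probe sets tested, 6.18% had groups that did not overlap with all 6 arrays. Over the 6 of 8 listed genes that had a probe set, their summed normalised signal was 1470 and 1520 in knockout replicates 3 and 1 and 1260 in knockout replicate 2, against 1630 to 1670 in the wildtype, while 0 of their 7 probe sets tested had an adjusted or an unadjusted limma p under 0.05. The median difference of these 7 was -0.32 with all arrays and -0.03 without knockout replicate 2. Their signs were mixed without that array. Nefl had -0.33, Isl1 -0.31 and 0.11 on its probe sets, Nefm -0.04 and Sncg -0.03. Rbpms had 0.01 and Thy1 0.06. Amacrine cell markers summed to 2070 and 2340 in knockout replicates 1 and 3 and 3110 in knockout replicate 2, against 2210 to 2590 in the wildtype. Of their 8 probe sets tested, 1 had an unadjusted limma p under 0.05 without knockout replicate 2, against 0.844% of all probe sets tested. It belongs to Gad1, which makes the transmitter GABA, with a difference of -0.47 (limma adjusted p = 1). Its groups did not overlap, as for 11.1% of all probe sets tested. The other Gad1 probe set had -0.56 ± 0.45 (SE), and its groups overlapped. Signs of the remaining amacrine markers were mixed without that array. Slc6a9 had -0.25 and -0.38, and Tfap2b had -0.22, also with no overlap. Tfap2a had 0.17 and 0.14, and Calb2 had 0.09. The part of cell composition in the differences between genotypes was not tested, and in whole retina fewer cells of a type and less RNA per cell cannot be told apart.

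**Figure D2:**
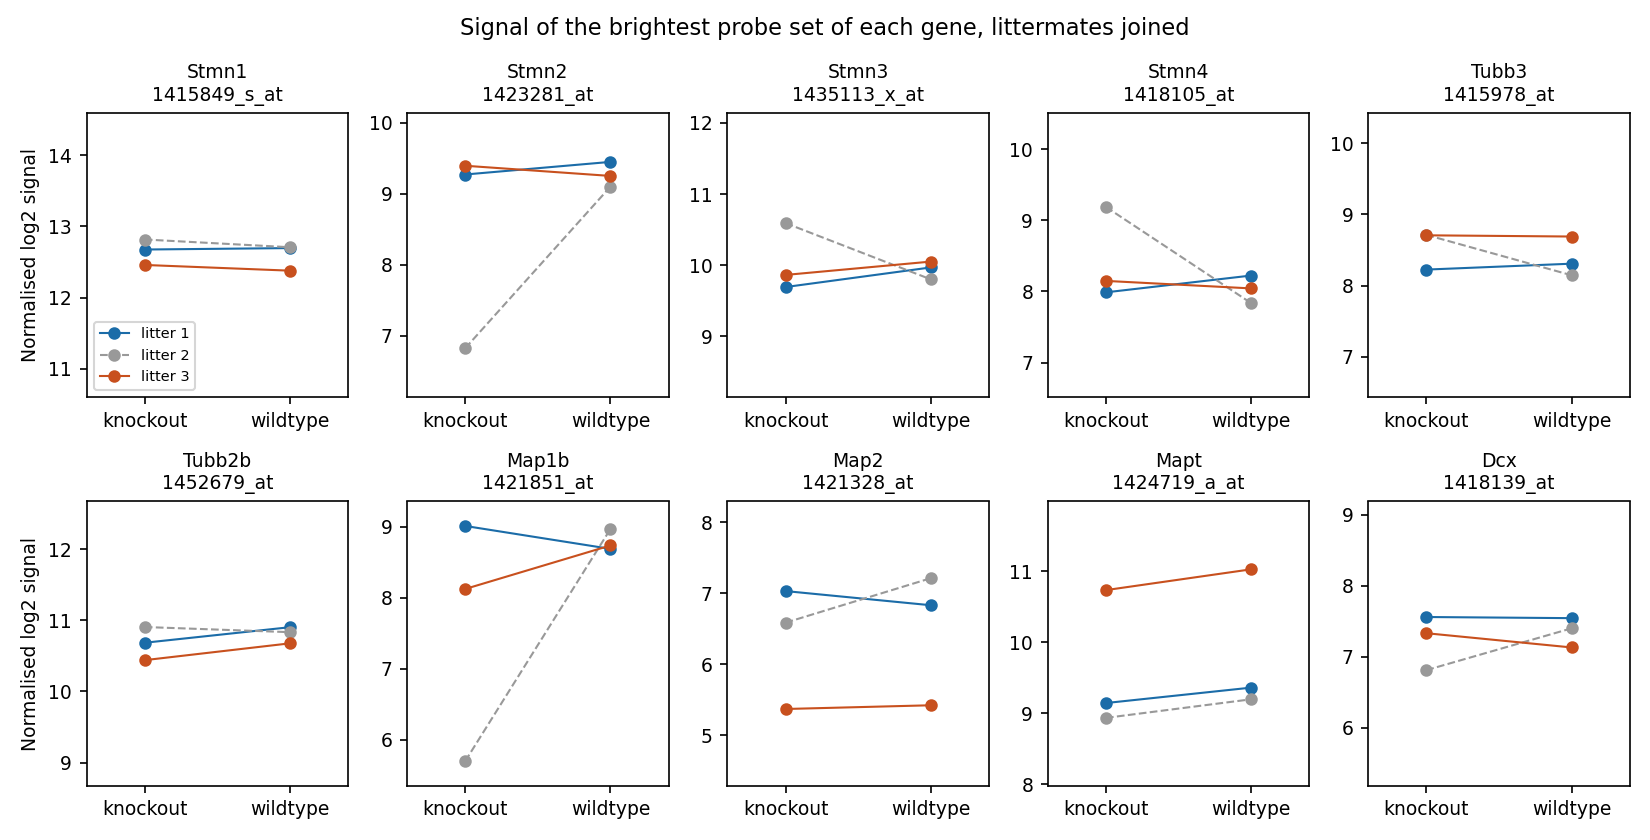
Quantile-normalised log2 signal of the brightest probe set of each of the 10 genes in knockout (left) and wildtype (right) retinas, each point 1 array and each line 1 litter; every panel spans 4 log2 units. Knockout replicate 2 (grey, dashed) is the lowest array for Stmn2, Map1b, Mapt and Dcx and the highest for Stmn1, Stmn3 and Stmn4. It is also narrowly the highest for Tubb3 and Tubb2b. For Mapt and Map2 the lines of litter 3 (orange) lie apart from the others.

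Within the littermate pairs the signs were mixed. After normalization without knockout replicate 2, 8 of the 17 probe sets had the same sign in pairs 1 and 3, as had 48.1% of all probe sets tested. The median over the 17 was -0.03 in pair 1, with 7 higher and 10 lower in the knockout, and 0.06 in pair 3, with 10 higher and 7 lower. Stmn1 1448113_at was higher in the knockout by 0.41 and 0.25 in pairs 1 and 3, whereas 1415849_s_at of the same gene had -0.01 and 0.06. Tubb2b had -0.20 and -0.21, and both probe sets of Stmn3 were also negative in both pairs, with -0.25 and -0.17 on 1435113_x_at and -0.13 and -0.13 on 1460181_at. Map1b had opposite signs on 1421851_at, 0.31 in pair 1 and -0.59 in pair 3. In pair 2, with all arrays normalised together, the 17 differences ran from -3.27 to 1.35. Fits with the litter as a replicate block called 0 of the 17, with all arrays and without knockout replicate 2.

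**Figure D3:**
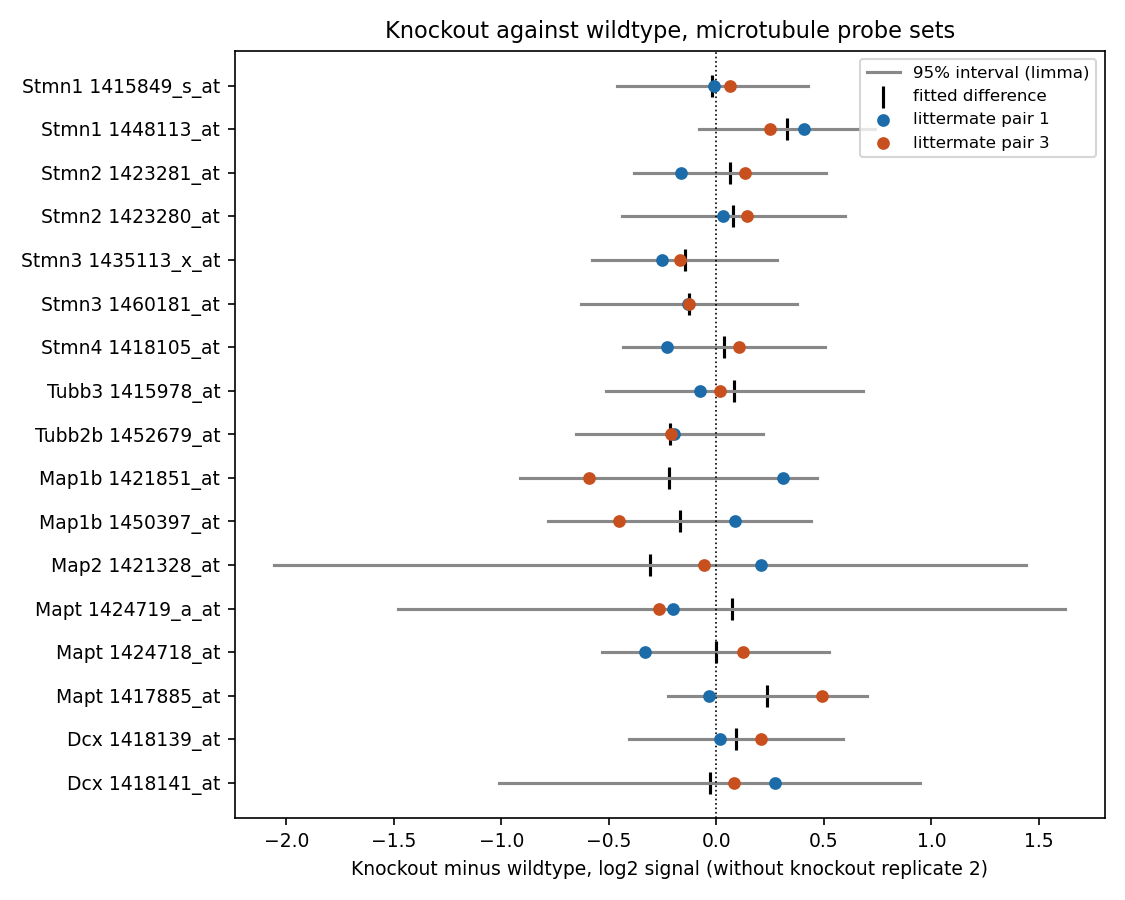
Knockout minus wildtype difference in log2 signal of the 17 probe sets tested, after normalization without knockout replicate 2, with the fitted value (black tick), its 95% interval from limma (grey line) and the differences within littermate pairs 1 (blue) and 3 (orange). Each interval includes 0, and the intervals of Map2 1421328_at and Mapt 1424719_a_at are the widest.

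Signal on the array of knockout replicate 2 was lost to unlike extents from probe set to probe set of the same gene. The median probe set tested had 9.60% of the mean deposited signal of the other knockout arrays. Stmn1 1415849_s_at kept 61.3% of it, with 3982 against 6530 and 6468 in knockout replicates 1 and 3, while Stmn1 1448113_at kept 7.71%. Stmn3 1435113_x_at kept 34.4% and Tubb2b 29.2%. The lowest shares among the 17 were those of Map1b 1421851_at (1.74%) and Stmn2 1423281_at (1.94%), the probe sets with the most negative fitted differences with all arrays. Those differences include knockout replicate 2, so a low share there itself lowers them. Where the probe sets lie along each transcript was not analysed here, and the part of RNA quality in these values was not tested.

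For several genes the highest or lowest arrays were the 2 of litter 3, of both genotypes. The following comparison was chosen after its values were seen, leaves out knockout replicate 2 and is a description. It sets the 2 retinas of litter 3 against the 3 of litters 1 and 2. The arrays of litter 3 lay outside the range of the others for 9 of the 17 probe sets, but so they did for 54.4% of all probe sets tested, so the group shows no more of this than the array as a whole. For 2 of 17 the means were also more than 1 log2 unit apart, against 5.74% of all. These were a Mapt and a Map2 probe set, which went in opposite directions. The Map2 probe set passed the filter only through the arrays of litters 1 and 2, so the filter itself bears on this count.

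Mapt 1424719_a_at had normalised log2 signals of 11.12 and 11.39 in knockout 3 and wildtype 3, against 9.67, 9.87 and 9.71 in knockout 1, wildtype 1 and wildtype 2. It was thus higher in litter 3 by 1.51, beyond the 95th percentile of all probe sets tested, 0.73. The other probe sets of Mapt differed by 0.26 and 0.12, and their ranges overlapped. Within an array, the deposited signal of 1424719_a_at was 7.22 and 10.5 times that of 1424718_at in knockout 3 and wildtype 3, and 3.30, 2.96 and 3.29 times in knockout 1, wildtype 1 and wildtype 2. This ratio is free of any scaling between arrays. It was higher in both arrays of litter 3 whatever their genotype, so the probe sets of Mapt moved unequally.

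Map2 1421328_at had 5.81 and 5.87 in knockout 3 and wildtype 3, against 7.59, 7.38 and 7.77 in knockout 1, wildtype 1 and wildtype 2. This is a difference of -1.74. The probe set passed the filter only through the arrays of litters 1 and 2, at percentiles 63.4 to 72.5. In knockout 3 and wildtype 3 it lay below the array's median, at percentiles 46.4 and 47.1. Its difference between litters is thus tied to the filter and is not set against those of all probe sets tested. The other Map2 probe set, 1421327_at, which did not pass the filter, had -0.67 with no overlap. All 4 probe sets of Dcx lay lower in litter 3 with no overlap, by -0.28 on 1418139_at, -0.89 on 1418141_at, and -1.33 and -1.17 on the dim 1448974_at and 1418140_at. Of all probe sets tested, 54.4% had no overlap either. The dim probe sets did not pass the filter, so that share does not cover them. Their deposited signals in knockout 3 and wildtype 3 were 10.3 and 7.0 on 1448974_at and 3.6 and 7.6 on 1418140_at. Tubb3 differed the other way, with 9.25 and 9.23 in knockout 3 and wildtype 3 against 8.78, 8.86 and 8.71 in knockout 1, wildtype 1 and wildtype 2, a difference of 0.46. This and the difference of Dcx 1418139_at lay between the 5th and 95th percentiles of all probe sets tested, -0.88 and 0.73. The other tubulin, Tubb2b, lay lower in litter 3, with -0.22 and no overlap.

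Ratios of 2 probe sets of a gene within an array were taken for the 8 pairs in which both passed the filter. In 5 of these 8 the arrays of litter 3 lay outside the range of the others, against 51.9% of the 5635 such pairs in all genes. The ratios of Mapt share probe sets and are not separate results. Both that hold Mapt 1424719_a_at are among these 5. For Map1b the ratio of 1421851_at to 1450397_at was 0.874 and 0.971 in knockout 3 and wildtype 3, against 1.79, 1.51 and 1.48 in knockout 1, wildtype 1 and wildtype 2. For Dcx, 1418139_at over 1418141_at gave 2.24 and 2.02 in litter 3, against 1.31, 1.57 and 1.20 in the same 3 arrays of litters 1 and 2. The Stmn3 ratio overlapped, with 2.91 and 3.05 against 3.09, 3.29 and 2.66. Between genotypes 1 of the 8 ratios did not overlap, against 12.3% of all pairs. This was Stmn1, with 7.46 and 8.33 in knockout 1 and knockout 3 and 9.56, 8.58 and 11.1 in wildtype 1, 2 and 3 for 1415849_s_at over 1448113_at.

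Other measures also differed between litter 3 and the others, to unlike extents and in part with overlap. Among all probe sets tested, 54.4% had litter 3 outside the range of the others, and the median difference was 0.0025. The ratio of 3' to 5' signal of Actb was 1.47 and 1.56 in knockout 3 and wildtype 3, against 1.41, 1.45 and 1.38 in knockout 1, wildtype 1 and wildtype 2, whereas that of Gapdh overlapped. Marker genes of the pigment epithelium had 6 probe sets tested, all 6 with a lower mean in litter 3. Their summed normalised signal was 1030 to 1380 there, against 1360 to 2030 in litters 1 and 2, which overlapped. Glial markers had 7 of 9 probe sets lower in litter 3, with sums of 7220 to 8340 there and 8780 to 9660 in litters 1 and 2, which did not overlap. Of 10 probe sets of progenitor markers 8 were lower, with sums of 9790 to 12100 in litter 3, against 10300 to 12800, which overlapped. Of 4 probe sets of rod markers 2 were higher and 2 lower, with sums of 7230 to 8320, against 7210 to 8680. Ganglion cell markers summed to 1470 to 1630 in litter 3 and 1520 to 1670 in litters 1 and 2, and amacrine cell markers to 2340 to 2590, against 2070 to 2340. The part of RNA quality and of cell composition in these differences was not tested. Litter and the handling of its samples cannot be told apart.

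**Figure D4:**
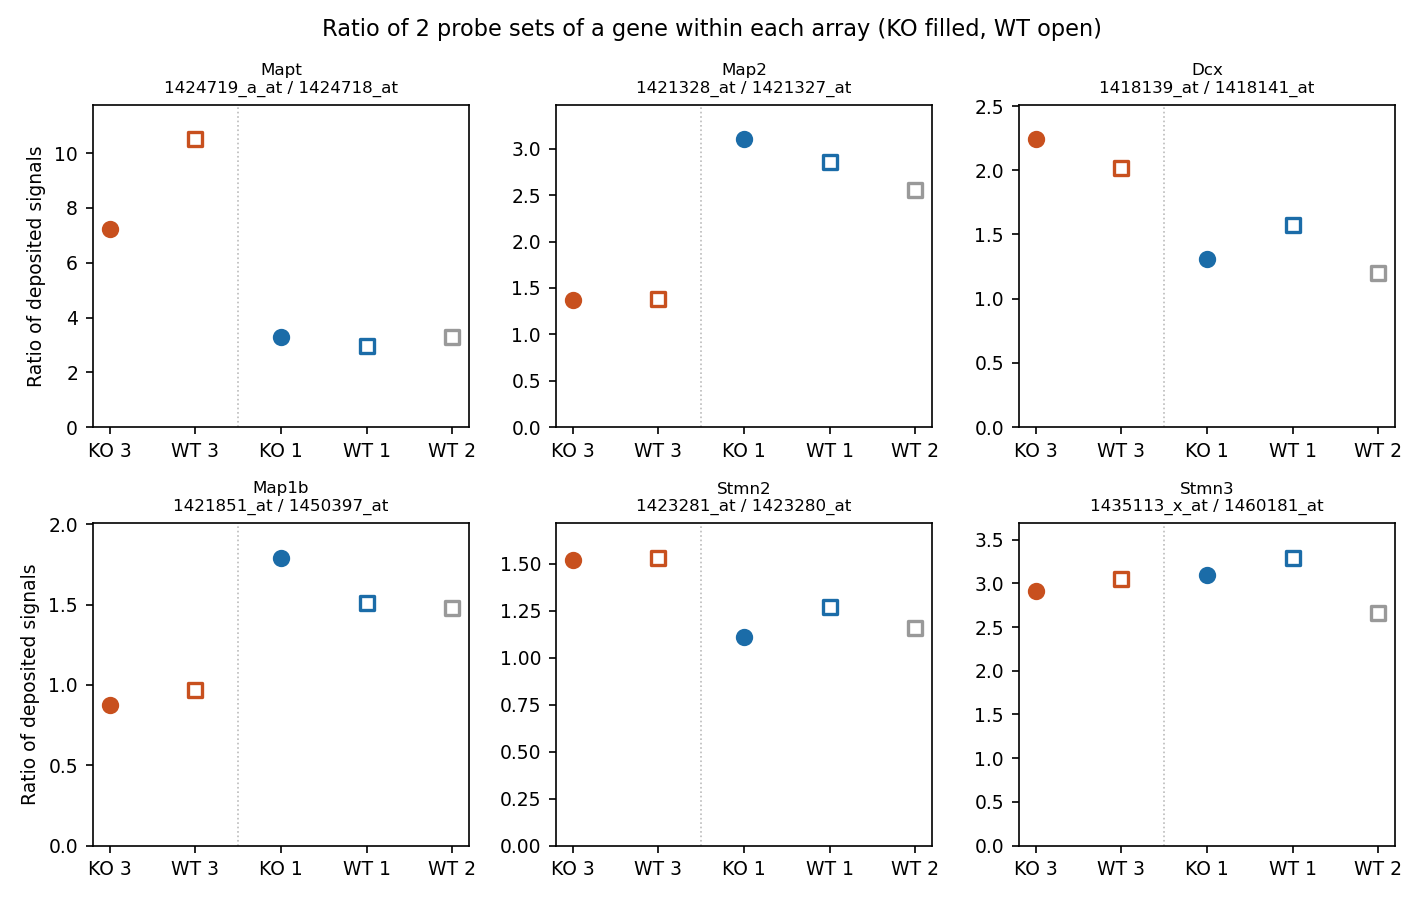
Ratio of the deposited signals of 2 probe sets of the same gene within each array, for litter 3 (left of the dotted line) and litters 1 and 2 (right), knockout as filled circles and wildtype as open squares. The ratio is higher in litter 3 for Mapt, Dcx and Stmn2, lower for Map2 and Map1b, and overlaps for Stmn3.

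The rest of the microtubule machinery gave the same count as the group. A list of 116 further genes held other tubulins, other microtubule-binding proteins, severing and tubulin-modifying enzymes, dynein and dynactin, neuronal kinesins, and kinases of stathmin and tau. Of these, 92 had a probe set and 81 a probe set past the filter, 153 probe sets in all. Limma gave 0 of the 153 an adjusted p under 0.05 and 0 an unadjusted p under 0.05, with all arrays and without knockout replicate 2, where 98 of all 11610 probe sets passed the latter. The median difference without knockout replicate 2 was 0.00 for 12 probe sets of other tubulins, -0.07 for 41 of other microtubule-binding proteins, 0.07 for 23 of the dynein, dynactin and Lis1 complex, which carries cargo and the nucleus toward the centrosome, and -0.13 for 32 of the kinesins. For 23 probe sets of the kinases it was -0.02, and for 22 of the severing, folding and tubulin-modifying proteins 0.03.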

How the data were processed

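Retinal RNA of 3 Nhlh2 knockout and 3 wildtype mice was hybridised by the authors to Affymetrix Mouse 430A 2.0 arrays, 1 per mouse. The values deposited by the authors are linear MAS 5.0 signals, a measure of intensity, 1 for each probe set of an array. Trimmed means (2% at each end) ran from 25.2 to 267, so arrays were not scaled to each other. No depth applies to arrays, and the number of arrays limits the precision.

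Of the 22690 probe sets, 64 controls were removed, 20380 had 1 gene symbol, 691 several and 1555 none in the annotation used. Log2(signal + 1) was quantile normalised, and a probe set was kept if its signal exceeded the median of its array in 3 or more of the 6. The 11610 kept were fitted with limma 3.58.1 in R 4.3.3, with Benjamini-Hochberg adjustment over all of them. The planned fit had no term for the litter, and the replicate block was an alternative, as were other scalings, a constant of 16, no filter, an intensity trend and leaving out each array. The pairing comes from the series design. After group means were removed, arrays of the same litter correlated at 0.271, -0.164 and 0.125 in litters 1, 2 and 3. The fit was tested on simulated data with independent noise and no litter difference or dim array, so that test does not cover these features.

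All 10 genes and every probe set were to be named, in full for the brightest in the wildtype and for those of the other sign or more than 1 log2 unit away. From the wider list, up to 3 probe sets per direction with an unadjusted p under 0.05 were to be named, and there were 0. Members and lists were chosen with earlier results of these data known.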

Additional observations from a re-analysis of the deposited data

How the results depend on the processing

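The count of 0 changed probe sets, in the group of 17 and in all, held under every alternative that was run, while the number with an unadjusted p under 0.05 in all ran from 3 without wildtype replicate 2 or 3 to 539 of 22626 with no filter, and was 0 of the 17 throughout. The replicate block with all 6 arrays left it at 14, and changed no call. The median difference of the 17 probe sets was 0.036 when arrays were centred on the 75th percentile, against -0.05, and ran from -0.053 to 0.050 when single arrays were left out. Of 14 named probe sets, centring on the 75th percentile turned the sign of Tubb2b to 0.29 and of Stmn3 1460181_at to 0.036, and scaling to a common trimmed mean that of Tubb2b to 0.16. With the replicate block and without knockout replicate 2, both together, signs turned for Stmn3 1435113_x_at (-0.21), Stmn4 (-0.064), Tubb3 (-0.031), Map2 (0.076), Dcx 1418139_at (0.11) and Mapt 1424718_at (-0.10). Leaving out knockout replicate 2 turned the sign of 7 of the 14, leaving out wildtype replicate 3 that of 5, and any other array that of 1 or 2. Leaving out single arrays gave ranges of -0.053 to 0.16 for Stmn1 1415849_s_at, -1.21 to 0.061 for Stmn2, -0.15 to 0.29 for Stmn3 1435113_x_at, -0.13 to 0.14 for 1460181_at, -0.24 to 0.14 for Map1b 1450397_at, -0.68 to 0.31 for Map2, -0.83 to 0.32 for Mapt 1424719_a_at, -0.0031 to 0.39 for 1424718_at, -0.29 to 0.089 for Dcx 1418139_at and -0.08 to 0.52 for 1418141_at. The cause was not tested. The litter 3 difference, an alternative chosen after seeing the data, stayed between 1.38 and 1.72 for Mapt 1424719_a_at and between -1.89 and -1.51 for Map2 1421328_at under other scalings, a constant of 16 and leaving out each of the 5 arrays.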
